A study of Mus musculus with 6 samples.

Results

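The genes described here encode RGS proteins, exchange factors and GTPase-activating proteins (GAPs) of Ras and Rap, DOK adaptors and EPS8 family proteins. They were chosen by symbol: genes whose name in the array's annotation begins with Rgs and a number, Rasgef, Rasgrp, Rasgrf, Rasa and a number, Rasal, Rapgef, Rap1gap, Dok and a number, or Eps8. That gave 57 of the 19938 genes with a single symbol, each read from its probe set with the highest mean. Of these members, 22 are RGS genes and their binding proteins, 9 are grouped as Ras exchange factors and 7 as Ras GAPs. A further 8 are regulators of Rap with Rapgef or Rap1gap symbols, 7 are DOK genes and 4 are EPS8 genes. The grouping follows the symbols, not every GTPase that a member acts on.

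CCR6+ group 3 innate lymphoid cells (ILC3s) were sorted from the small intestine lamina propria of adult C57BL/6 mice and profiled on whole-transcript arrays, 1 array per sample. The RANKL-deficient group holds 3 arrays from mice in which a Cre transgene acts on floxed alleles of Tnfsf11 (Tnfsf11fl/fl), the gene of the TNF family cytokine RANKL. The control group holds 3 arrays from Tnfsf11fl/fl mice, which carry the same floxed alleles and no Cre named in the labels, so Cre and the deletion cannot be told apart. The Cre is not limited to ILC3s.

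RGS proteins speed the hydrolysis of GTP by G protein alpha subunits and so shorten signals from chemokine and other G protein-coupled receptors. Ras and Rap are small GTPases that are switched on by exchange factors and off by GAPs, and in lymphocytes they carry signals from antigen, cytokine and chemokine receptors to the ERK cascade and to integrins. DOK proteins are adaptors phosphorylated by tyrosine kinases, several of which recruit the Ras GAP p120, and EPS8 proteins link receptor kinases to actin.

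All values are log2 expression values from RMA, a normalization that gives the arrays nearly the same distribution. The ILC3 list was well above the median gene (5.12), with array means of 10.43 to 10.62 in RANKL-deficient cells and 10.33 to 10.45 in control cells over 10 measured genes. Ccr6, the gating marker, measured 9.28, 9.55 and 9.54 in RANKL-deficient cells, against 8.99, 8.60 and 9.80 in control cells. Tnfsf11 measured 8.51 ± 0.15 in RANKL-deficient cells and 8.47 ± 0.26 in control cells (SD, n = 3 each), and the position of its probe set relative to the floxed exons is not given in the sources used here, so this does not check the labels. Control array 1 stood apart, with a mean correlation to the others of 0.960 across genes, followed by control array 2 at 0.970, while the remaining 4 reached up to 0.977. It also held 247 genes that fell short of the other arrays' median by over 1.5 (log2). Control array 2 held 75 such genes and the remaining arrays 11 to 28 each. Differences that rest on control arrays 1 and 2 are therefore also given without them for some genes, not for all. Markers of other cell types were mostly lower in RANKL-deficient cells: the array means did not overlap for B and plasma cells (5.06 to 5.19 against 5.22 to 5.28 in control cells), ILC1 and NK cells (4.13 to 4.28 against 4.29 to 4.71) or stroma, endothelium and glia (5.90 to 5.93 against 6.04 to 6.19). Of these markers 3 of 7, 1 of 7 and 7 of 9 lay above the median gene, so the first 2 lists were mostly weak and the third was not. In the same order, 6 of 7, 7 of 7 and 8 of 9 were lower in RANKL-deficient cells. Of all genes at or below the median gene, 75.6% were lower in RANKL-deficient cells (median difference −0.10), and of those above it 45.3% (median 0.033).

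Promoter sequence is shown for 4 of the 11 members whose groups did not overlap. RefSeq promoters (GRCm38.p6) were matched by gene ID for 42 of the 57 members. Shown are the 250 bases before the start of 4 members with 1 listed start, in each direction the pair with the smallest p. They are not the most separated members, since this choice leaves out Eps8, Dok2 and Rap1gap2, and Rasa2 and Rasgrp1 were separated by only 0.041 and 0.027. Capitals mark GC boxes (GGGCGG) and CCAAT boxes (CCAAT), on either strand. The higher pair is Rasgef1b at chr5:99252928-99253177, minus strand, and Rasa2 at chr9:96631504-96631753, minus strand.
Rasgef1b: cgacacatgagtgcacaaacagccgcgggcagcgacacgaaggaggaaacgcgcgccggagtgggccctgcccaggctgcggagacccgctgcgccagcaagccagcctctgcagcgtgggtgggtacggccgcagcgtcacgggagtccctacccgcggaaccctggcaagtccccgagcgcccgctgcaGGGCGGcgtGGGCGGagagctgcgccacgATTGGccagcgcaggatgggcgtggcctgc
Rasa2: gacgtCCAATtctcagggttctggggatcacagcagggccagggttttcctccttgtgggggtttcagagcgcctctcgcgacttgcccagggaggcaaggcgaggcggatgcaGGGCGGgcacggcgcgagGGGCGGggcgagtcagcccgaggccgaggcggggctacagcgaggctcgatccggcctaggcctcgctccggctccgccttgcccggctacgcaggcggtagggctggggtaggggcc
The lower pair is Rgs16 at chr1:153740103-153740352, plus strand, and Rasgrp1 at chr2:117342878-117343127, minus strand.
Rgs16: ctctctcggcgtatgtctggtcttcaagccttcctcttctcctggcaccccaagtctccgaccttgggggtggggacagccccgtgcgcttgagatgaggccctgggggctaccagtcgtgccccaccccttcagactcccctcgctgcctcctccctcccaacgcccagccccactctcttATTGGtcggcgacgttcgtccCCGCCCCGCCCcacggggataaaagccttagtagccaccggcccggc
Rasgrp1: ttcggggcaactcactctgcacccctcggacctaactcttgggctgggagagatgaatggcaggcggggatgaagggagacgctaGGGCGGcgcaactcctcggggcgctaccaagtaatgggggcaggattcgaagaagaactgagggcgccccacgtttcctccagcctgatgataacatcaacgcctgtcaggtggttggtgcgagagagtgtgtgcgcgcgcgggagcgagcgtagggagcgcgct
The 4 windows are rich in G and C, at 72.4%, 71.2%, 66.4% and 62.4% in the order shown, against a median of 52.4% over all listed promoters. A GC box stands in each of them and a CCAAT box in 3, where 32.7% and 33.8% of the 32851 listed windows hold these letters. In Rgs16, 2 GC boxes overlap by a base. The letters of AP-1 (TGANTCA, in 6.75% of all windows), the cAMP response element (TGACGTCA, 1.55%) and the E box (CACGTG, 6.02%) are not in these windows. A match is a description of the letters and not of a site in use.

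No member passed the adjusted threshold of 0.05 in limma with Benjamini-Hochberg adjustment over all genes, where 0.00502% of all genes passed in the higher direction and 0% in the lower. At an unadjusted p under 0.05, 6 members differed in either direction (10.5% of the members, background 8.15% of all genes). Of these, 4 members were higher in RANKL-deficient cells (background 4.25% of all genes) and 2 were lower (background 3.9%), which makes 7.02% and 3.51% of the members. The groups did not overlap for 11 members (19.3% of the members, background 14.4% of all genes). All 3 RANKL-deficient arrays lay above all 3 control arrays for 5 members (background 5.28%) and below them for 6 (background 9.08%). As shares of the members these are 8.77% and 10.5%, near the background. The members as a whole sat where the genes of the array sat, with a median difference of −0.055 against −0.054 for all genes. Differences here are log2 values, RANKL-deficient minus control.

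**Figure D1:**
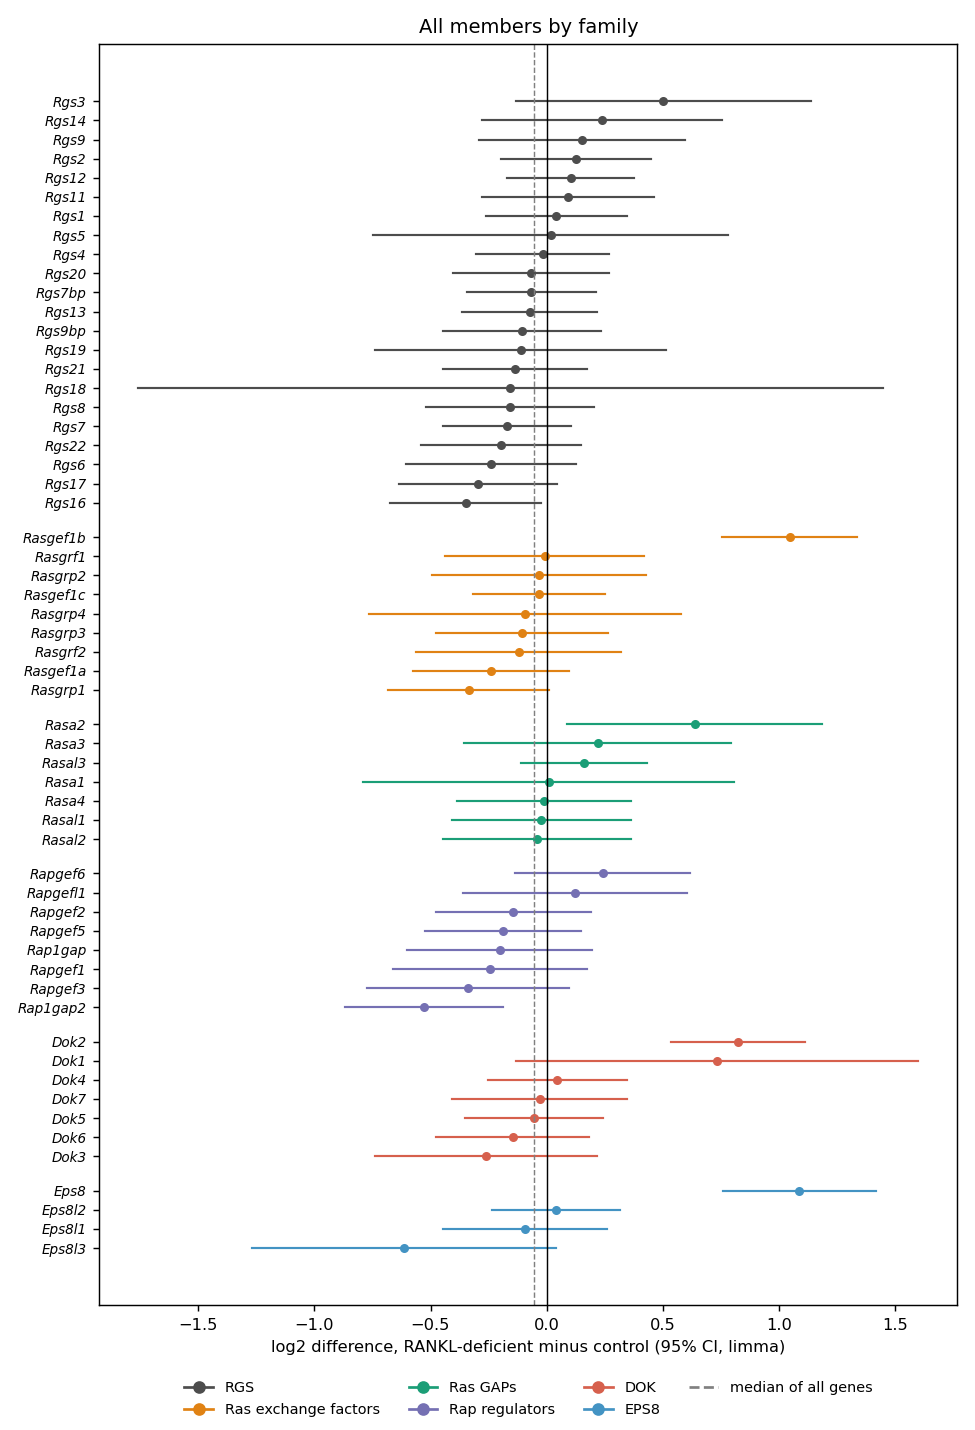
Log2 difference (RANKL-deficient minus control, x axis) of each of the 57 members with its 95% confidence interval from limma, by family; the dashed line is the median of all genes (−0.054). The interval excludes 0 for 6 members, of which Rasgef1b (1.05), Eps8 (1.09) and Dok2 (0.82) lie farthest from it.

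Rasgef1b, Eps8 and Dok2 stood apart from the other members. They come from different families, and the gap between the nearest arrays of the groups was 0.87, 0.84 and 0.72 for them, against at most 0.19 for the other 8 members that did not overlap. In bulk samples such as these, fewer cells of a type and less RNA per cell cannot be told apart.

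Rasgef1b encodes an exchange factor of the RASGEF family, known in mouse macrophages as a gene induced through Toll-like receptors. Its values were 7.97, 8.11 and 7.90 in RANKL-deficient cells, against 7.02, 6.88 and 6.94 in control cells. Both groups were tight, and every RANKL-deficient array was above every control array. The means were 7.99 ± 0.11 and 6.95 ± 0.07 (SD, n = 3 each), a 2.06-fold difference (log2 1.05, SE 0.12, 95% CI 0.75 to 1.34, limma adjusted p = 0.202). By unadjusted p it ranked 5 of 19938 genes. Its promoter, printed above, holds a pair of GC boxes next to a CCAAT box. Its paralogs Rasgef1a and Rasgef1c did not share the difference, at −0.24 (95% CI −0.57 to 0.10) and −0.033 (95% CI −0.32 to 0.25), and both lay below the median gene. Without control arrays 1 and 2 Rasgef1a had −0.045.

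Eps8 encodes a substrate of the EGF receptor that caps and bundles actin filaments and, with ABI1 and SOS1, activates Rac. It measured 7.72, 7.93 and 7.55 in RANKL-deficient cells, against 6.62, 6.62 and 6.70 in control cells. The control arrays were nearly equal and all lay below the RANKL-deficient arrays. The difference was 2.12-fold (log2 1.09, SE 0.14, 95% CI 0.76 to 1.42, limma adjusted p = 0.202). Eps8l3, an EPS8-like gene, had the opposite sign, with 6.33, 6.40 and 6.43 in RANKL-deficient cells, against 7.66, 6.56 and 6.78 in control cells. Its difference of −0.61 (95% CI −1.27 to 0.04, limma adjusted p = 0.618) rests much on control array 1 and was −0.28 without it. Eps8l1 and Eps8l2 had −0.095 and 0.041, and 0.096 and 0.10 without control arrays 1 and 2.

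Dok2 encodes an adaptor of blood cells that recruits p120 Ras GAP and dampens signals from receptor and antigen receptor kinases. Its values were 6.31, 6.38 and 6.32 in RANKL-deficient cells, against 5.59, 5.57 and 5.38 in control cells. The difference was 1.77-fold (log2 0.82, SE 0.12, 95% CI 0.53 to 1.11, limma adjusted p = 0.245). Dok1, its closest relative in function, had a difference of similar size but scattered arrays, at 6.57, 6.12 and 5.50 in RANKL-deficient cells, against 5.76, 4.64 and 5.59 in control cells. Its groups overlapped, and the difference of 0.73 (95% CI −0.13 to 1.60, limma adjusted p = 0.646) was 0.39 without control array 2, the lowest array, and 1.01 without RANKL-deficient array 3. Dok3, an adaptor of B and myeloid cells, had −0.26, and 0.022 without control arrays 1 and 2. Dok4, Dok5, Dok6 and Dok7, which act with kinases such as RET and MuSK, had −0.15 to 0.046.

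**Figure D2:**
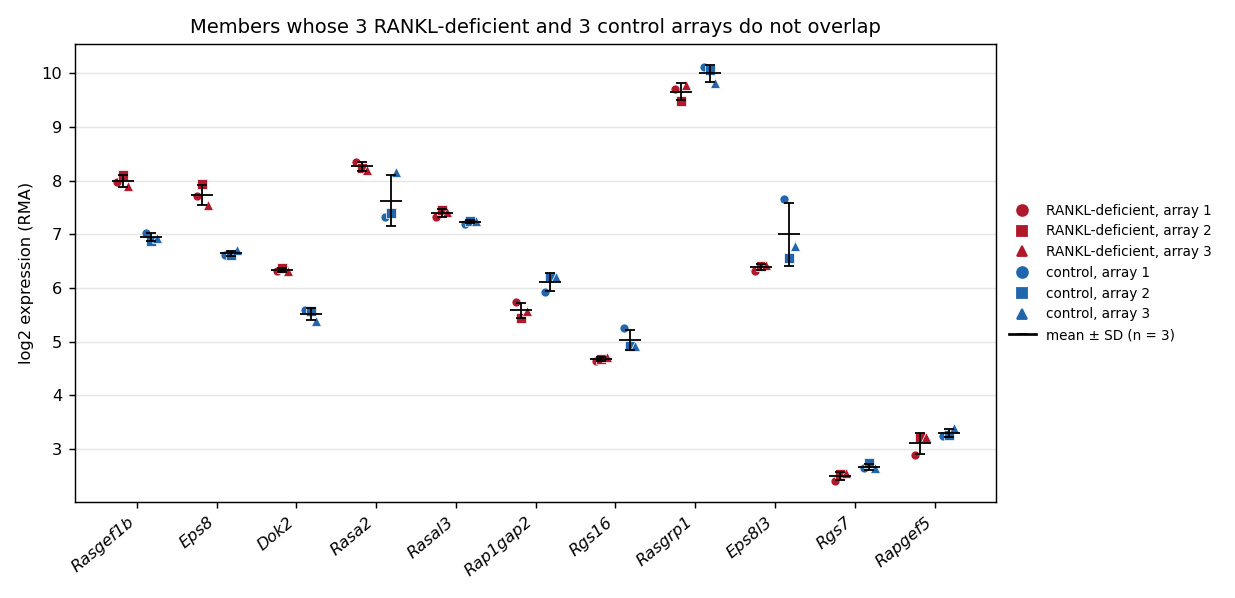
Log2 expression (y axis) of the 11 members whose groups do not overlap, by array, with RANKL-deficient arrays left of control arrays and the mean ± SD of 3 arrays in black. Rasgef1b, Eps8 and Dok2 are separated by 0.72 to 0.87 and the other 8 by 0.015 to 0.19.

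Among the Ras exchange factors, Rasgrp1, which is activated by diacylglycerol and couples the T cell receptor to Ras, was the next to separate, in the lower direction. It measured 9.72, 9.48 and 9.79 in RANKL-deficient cells, against 10.12, 10.06 and 9.81 in control cells. Control array 3 was only 0.027 above RANKL-deficient array 3, and the difference of −0.34 (95% CI −0.68 to 0.01, limma adjusted p = 0.615) was −0.15 without control arrays 1 and 2. T cell markers had array means of 4.46 to 4.68 in RANKL-deficient cells and 4.56 to 5.07 in control cells over 8 genes, 3 of them above the median gene. The list was mixed, with 3 of 8 differences positive and a median of −0.016 (0.11 without control arrays 1 and 2). It ran from Cd3g, a chain of the T cell receptor complex, at −1.91 to Trat1 at 0.28, and the groups did not overlap for either. Without control arrays 1 and 2 these differences were −1.04 and 0.26. The part of these markers in the Rasgrp1 value was not tested. Rasgrp2, Rasgrp3 and Rasgrp4, best known from platelets, B cells and mast cells, had −0.031, −0.11 and −0.093. The calcium-sensing neuronal factors Rasgrf1 and Rasgrf2 had −0.0084 and −0.12. Of the 9 exchange factors, 8 had a negative difference and 1, Rasgef1b, a positive one, where 39.5% of all genes were positive. Rasgef1a, Rasgef1c, Rasgrf1, Rasgrf2, Rasgrp2 and Rasgrp3 lay below the median gene, a range where 24.4% of genes were positive.

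Among the Ras GAPs, Rasa2, a GAP that binds phosphoinositides, measured 8.36, 8.24 and 8.21 in RANKL-deficient cells, against 7.32, 7.40 and 8.17 in control cells. Control array 3 lay only 0.041 below the RANKL-deficient arrays, and control arrays 1 and 2 lay far below. The difference was 0.64 (95% CI 0.09 to 1.19, limma adjusted p = 0.590), and 0.099 without control arrays 1 and 2. Rasal3, a GAP of blood cells, separated by a small step, with 7.32, 7.46 and 7.41 in RANKL-deficient cells, against 7.20, 7.26 and 7.26 in control cells, a difference of 0.16 (95% CI −0.11 to 0.43). Rasa1, the p120 GAP that DOK proteins recruit, averaged 7.25 in RANKL-deficient cells and 7.24 in control cells. Its control arrays ran from 6.53 (array 1) to 7.94 (array 3), so the interval of its difference of 0.0085 was wide (−0.79 to 0.81). Without control arrays 1 and 2 the difference was −0.69. Rasa3 had 0.22, and Rasa4, Rasal1 and Rasal2 had −0.041 to −0.011.

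Rap is the GTPase that activates integrins. Of its regulators with Rapgef or Rap1gap symbols, 6 of 8 (75%) had lower values in RANKL-deficient cells, with a median of −0.20. Over all genes 60.5% were lower, with 45.3% above the median gene and 75.6% at or below it. None of the 8 passed the adjusted threshold. Rap1gap2, a GAP for Rap1 known from platelets, measured 5.73, 5.45 and 5.56 in RANKL-deficient cells, against 5.92, 6.21 and 6.21 in control cells. Its groups did not overlap, and the difference of −0.53 (95% CI −0.87 to −0.19, limma adjusted p = 0.461) was larger in size, at −0.62, without control arrays 1 and 2. Rap1gap had −0.20, and 0.074 without control arrays 1 and 2. Among the exchange factors, Rapgef3 (the cAMP-activated EPAC1) had −0.34, Rapgef1 had −0.24 and −0.21 on its other probe set, and Rapgef2 had −0.14. Rapgef5 did not overlap between groups by a step of 0.015, at 2.88, 3.22 and 3.22 in RANKL-deficient cells, against 3.24, 3.27 and 3.39 in control cells. Rapgef6, a PDZ domain factor, and Rapgefl1 were on the positive side, at 0.24 and 0.12, and Rapgef6 had −0.0030 without control arrays 1 and 2.

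Among the RGS genes of the R4 subfamily, Rgs1, which restrains chemokine receptor signals in B and T cells, measured 10.90, 11.11 and 11.03 in RANKL-deficient cells, against 10.85, 11.08 and 10.99 in control cells. Its groups overlapped fully, and the difference of 0.041 had an interval of −0.26 to 0.34; its sign turned with quantile normalization (−0.073) and cyclic loess (−0.060). Rgs2, which acts mainly on Gq, measured 10.10, 10.17 and 9.92 in RANKL-deficient cells, against 9.78, 9.99 and 10.04 in control cells (difference 0.13, 95% CI −0.20 to 0.45). For both genes a change of 1.5-fold lay outside the interval. Rgs16, a further R4 RGS gene induced on lymphocyte activation, was the RGS gene with the smallest p, at 4.65, 4.67 and 4.73 in RANKL-deficient cells, against 5.25, 4.93 and 4.91 in control cells. The difference was −0.35 (95% CI −0.67 to −0.02, limma adjusted p = 0.603) and −0.24 without control array 1. All its arrays but control array 1 lay below the median gene, where the arrays measure poorly.

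Rgs3 needs care, since its 2 probe sets gave 0.50 and 0.14. The one with the higher mean measured 8.17, 8.64 and 8.94 in RANKL-deficient cells, against 7.80, 7.90 and 8.56 in control cells. Its identifier lies among probe sets of chromosome X genes (10 of the 10 nearest in identifier order), although Rgs3 is on chromosome 4, while the other probe set has 10 of 10 neighbours on chromosome 4. For no other member did all these neighbours lie elsewhere. The Rgs3 value is therefore uncertain. Without control arrays 1 and 2 its difference was 0.030.

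Of the other RGS genes, the R7 members Rgs6, Rgs7, Rgs9 and Rgs11, which pair with Gβ5, had −0.24 to 0.15. Rgs7 separated by a step of 0.090, at 2.41, 2.55 and 2.55 in RANKL-deficient cells, against 2.64, 2.73 and 2.64 in control cells, far below the median gene. The membrane anchors Rgs7bp and Rgs9bp had −0.067 and −0.11. The R12 members Rgs12 and Rgs14, which also bind Ras, had 0.10 and 0.24, and the RZ members Rgs17, Rgs19 and Rgs20 had −0.29, −0.11 and −0.066. Rgs22 had −0.20. Rgs4, Rgs8, Rgs13 and Rgs21, known from neurons, germinal centre B cells or taste cells, lay between −0.16 and −0.017 and below the median gene.

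Several RGS genes stand next to each other on mouse chromosome 1, in the RefSeq table of GRCm38.p6. Rgs2, Rgs13, Rgs1, Rgs21 and Rgs18 follow each other with 0 protein-coding genes between them, as do Rgs8 and Rgs16, and Rgs5 and Rgs4. Within the first run, Rgs13 and Rgs21 measured 2.36 to 2.92 over the 6 arrays, Rgs1 and Rgs2 had the values given above, and Rgs18 spread widely.

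Rgs18, known from platelets, megakaryocytes and myeloid cells, had the widest scatter within groups of all members, a pooled SD of 1.09 that 99.5% of genes lay below. It measured 4.59, 6.31 and 4.36 in RANKL-deficient cells, against 3.96, 5.94 and 5.84 in control cells. The arrays fell at 2 levels in each group, so the difference of −0.16 (95% CI −1.76 to 1.45) says little. Markers of macrophages, monocytes and dendritic cells (8 genes, 4 above the median gene) had array means of 4.72, 4.86 and 5.11 in RANKL-deficient cells, against 5.23, 5.07 and 5.03 in control cells. Mast cell markers (6 genes, 0 above the median gene) had 3.45 to 3.52 in RANKL-deficient cells and 3.49 to 3.77 in control cells. Of these, only Cpa3 was highest on the same 3 arrays as Rgs18, at 3.80, 4.41 and 3.72 in RANKL-deficient cells, against 4.01, 4.41 and 4.32 in control cells. The rest of the list went another way: Mcpt1, Mcpt2, Tpsb2, Fcer1a and Ms4a2 were each highest on control array 1, where Rgs18 was lowest. The part of these cells in the Rgs18 values was not tested. Rgs5, a marker of pericytes, scattered too, at 3.93, 5.21 and 4.43 in RANKL-deficient cells, against 4.49, 4.23 and 4.80 in control cells. The median pooled SD of the members was 0.17 against 0.21 for all genes, and 19.3% of members were over 0.3 against 27.9% of all genes. This comparison was not matched for level, and 30 members lay at or below the median gene.

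**Figure D3:**
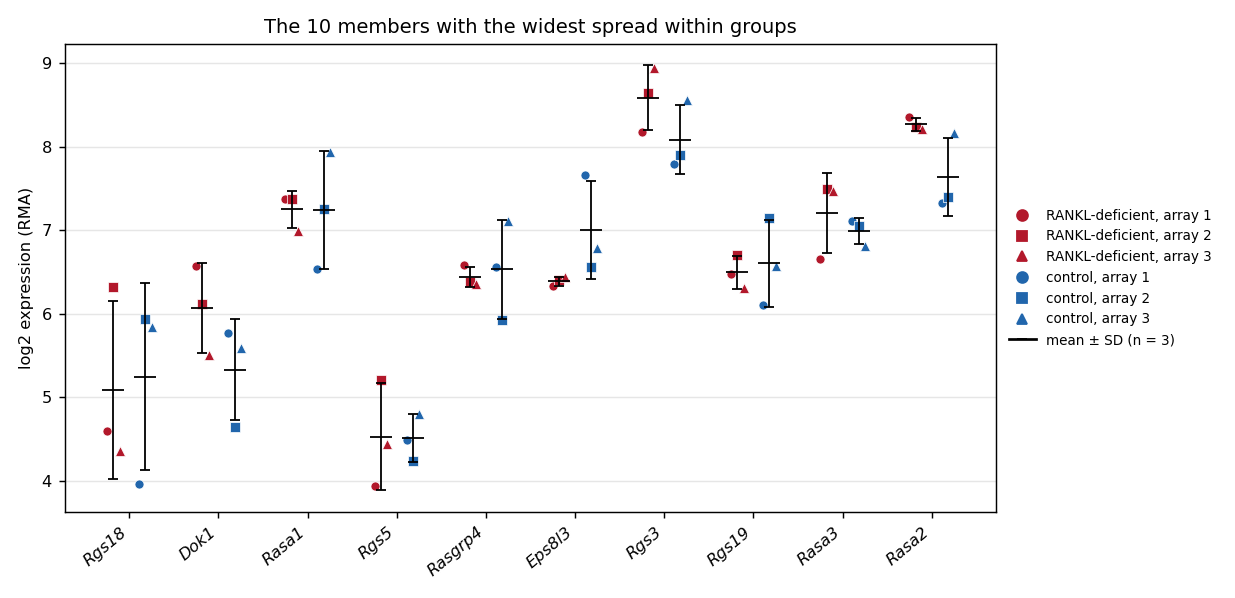
Log2 expression (y axis) of the 10 members with the widest pooled SD within groups, by array, with RANKL-deficient arrays left of control arrays and the mean ± SD of 3 arrays in black. Rgs18 lies at 4.36 to 6.31 in RANKL-deficient cells and 3.96 to 5.94 in control cells, and for Rasa1, Rasa2 and Rgs3 control array 3 is above the other control arrays.

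The level of a gene on the array went with the sign of its difference. The arrays also differed in range: the SD across genes was 1.86 on control array 1 and 1.93 on control array 2, against 1.99 to 2.01 on the others. Array medians were 5.07 to 5.10 in RANKL-deficient cells and 5.12 to 5.15 in control cells. The part of array range and median in this pattern was not tested. Of the 27 members above the median gene, 15 had a positive difference (median 0.041), against 5455 of 9969 genes in that range (median 0.033). Of the 30 members at or below it, 5 had a positive difference (median −0.11), against 2429 of 9969 genes (median −0.10). Without control arrays 1 and 2 the medians of these low genes were 0.0034 for the members and 0.0047 for all genes. A size of at least 0.5 was reached by 8 members, 6 positive (10.5% of the members, background 6.11%) and 2 negative (3.51%, background 2.95%). All 8 lay above the median gene, as did 1508 of the 1807 genes of that size.

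**Figure D4:**
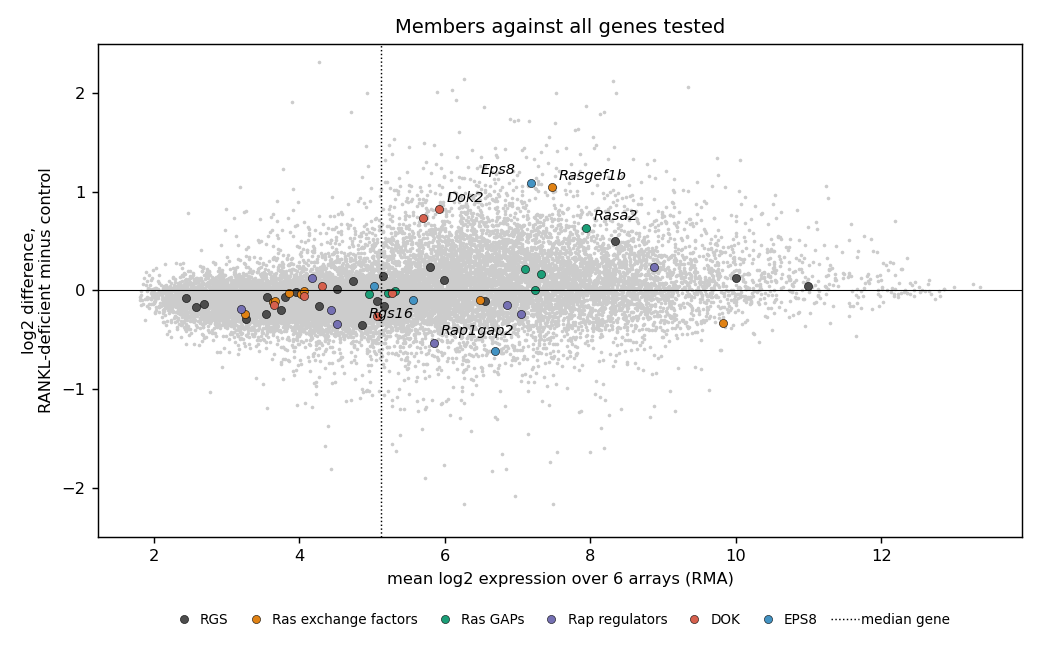
Mean log2 expression over the 6 arrays (x axis) and log2 difference, RANKL-deficient minus control (y axis), for all genes in grey and the members in colour by family; 3 genes lie beyond the y axis. Members left of the dotted median gene (5.12) have small, mostly negative differences like the grey genes around them, and the named members had an unadjusted p under 0.05.

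The order of the differences depended on which control arrays entered. Rasgef1b ran from 0.99 to 1.09 when any 1 array was left out, Eps8 from 0.99 to 1.18 and Dok2 from 0.75 to 0.86. Without control arrays 1 and 2 together they measured 1.05, 1.03 and 0.96. Of the 11 members whose groups did not overlap, 2 had less than 50% of their size left without those arrays, Rasa2 and Rasgrp1, and 4 were at least as large, Rasgef1b, Dok2, Rap1gap2 and Rapgef5. With 1 control array left, this check has no control spread of its own.

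**Figure D5:**
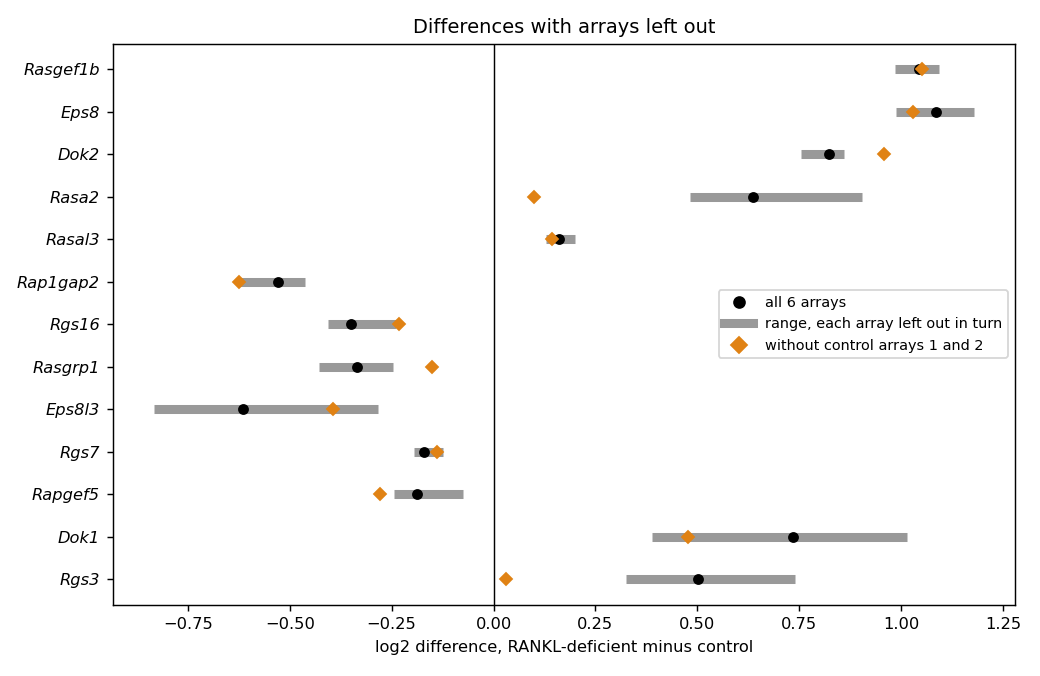
Log2 difference (x axis) of the 11 members whose groups do not overlap and of Dok1 and Rgs3, with all 6 arrays (black), as a range when each array is left out in turn (grey bar) and without control arrays 1 and 2 (orange). Rasgef1b, Eps8 and Dok2 stay between 0.75 and 1.18, while Rasa2 and Rgs3 come to 0.099 and 0.030 without those control arrays.

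The partners of these regulators, in 7 lists, had 0 of 94 genes past the adjusted threshold in limma, with 3 higher (3.19%, background 4.25%) and 7 lower (7.45%, background 3.9%) at an unadjusted p under 0.05. The sign counts that follow stand beside 39.5% positive over all genes. That share was 54.7% for genes above the median gene, where most genes of each list lay, and 24.4% for genes at or below it. Of 26 heterotrimeric G protein subunits, 8 had positive differences (median −0.060). Gnaq, an alpha subunit that RGS2 acts on, measured 6.46, 6.70 and 6.52 in RANKL-deficient cells, against 7.14, 6.79 and 7.27 in control cells. Its difference was −0.51. The related alpha subunits Gna11, Gna14 and Gna15 had 0.59, −0.098 and 0.37, with overlapping groups. Gnb5, the beta subunit that R7 RGS proteins bind, had −0.36. Of 12 Ras and Rap GTPases, 11 had positive differences, all small (median 0.15), and Mras was the exception, at −0.61. Among 16 other exchange factors and GAPs of Ras, Rap and Ral, 12 had negative differences, led by Ralgps2, an exchange factor for Ral, at −0.84. The kinases and partners of DOK proteins had 10 of 15 positive, with Src at −0.81 (−0.37 without control arrays 1 and 2), and Csk, which restrains Src kinases, at 0.41. Of 12 EPS8 partners, 8 were positive, and the actin capping subunit Capza1 (0.77) and the blood cell GTPase Rac2 (0.73) had groups that did not overlap. Without control arrays 1 and 2 these were 0.23 and 0.34, and the median of the EPS8 partners was −0.0097, against 0.084 with all arrays. Rac2 measured 10.82, 10.77 and 11.16 in RANKL-deficient cells, against 9.72, 10.24 and 10.58 in control cells. The RAF and ERK cascade had 2 of 7 positive, with its scaffold Ksr1 at −0.37. Receptor kinases and arrestins had 3 of 6 positive, and Grk5 had −0.77 with overlapping groups.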

How the data were processed

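The authors deposited log2 expression values for 35556 probe sets and 6 arrays. Per the submitters' processing notes, RMA and Affymetrix Expression Console were used. Their versions and the genome build were not given in the sources used here. RNA (2 ng) was amplified with a NuGEN kit, per the labels' protocols. Precision is limited by the number of arrays.

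Probe sets with 1 symbol in the platform annotation (21789, against 1621 with several and 12146 with none) gave 19938 genes, each read from its highest-mean probe set, with no filter on low values. All 57 members matched the RefSeq gene table. The groups were tested in limma 3.58.1 under R 4.3.3 with lmFit and eBayes, without a block. Tests were two-sided, and p-values were adjusted by Benjamini-Hochberg across all genes (threshold 0.05). The script was tested on simulated data. The labels do not say whether samples came from separate mice, so the p-values cover only the spread among these samples, and that spread may be technical. Deviations of same-numbered samples correlated at −0.023, 0.050 and 0.027, and those of differently numbered samples at −0.058 to 0.026. With 3 arrays per group these values cannot decide whether the numbers pair the samples, and the labels do not say.

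The driver of the Cre transgene is not reported here. The members and lists were chosen with earlier results of these data known. Named members were those with an unadjusted p under 0.05 or groups that did not overlap, the 2 largest by size in each class, and 8 fixed genes, 31 in all. Partner lists gave up to 3 genes each by smallest p, and the G protein list also gave Gna11, Gna14 and Gna15. Alternatives were other normalizations, a level filter, probe set averaging, all probe sets, array weights, trend and robust options, a replicate block and arrays left out.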

Additional observations from a re-analysis of the deposited data

How the results depend on the processing

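No member passed the adjusted threshold under any of the 16 alternatives (smallest adjusted p = 0.132 in limma), and the named members kept their sign in 461 of 482 fits. The count of members at an unadjusted p under 0.05 and lower in RANKL-deficient cells was 2 in the main comparison. It was 1 with median centring, genes above the median or the replicate block, and 1 to 5 with each array left out (5 without control array 3). The count higher, 4 in the main comparison, was 3 to 5. Members whose groups did not overlap numbered 14 higher and 13 lower without control arrays 1 and 2, where a lone control array makes overlap rarer, and 3 lower among genes above the median. With each array left out they numbered 5 to 9 higher and 7 to 17 lower. The most higher came without RANKL-deficient array 3 and the most lower without control array 3, and fewer arrays make overlap rarer here too. The share of all genes without overlap was counted only with all 6 arrays, so these counts have no background. Over all 19938 genes, 1624 had an unadjusted p under 0.05 in limma in the main comparison (847 higher and 777 lower). That count, not split by direction in the alternatives, was 1583 with median centring, 1596 with the replicate block and 918 of the 9969 genes above the median. It was 1137 to 2812 with each array left out (2812 without control array 3). The members' median difference stayed between −0.11 and 0.041. Among the named members, signs turned for small differences. Rasgrf1 had 0.053 with quantile normalization, 0.030 with median centring, 0.098 with cyclic loess, 0.36 without control arrays 1 and 2, and −0.19 to 0.11 with each array left out. Rgs7bp had 0.0026 with quantile normalization and 0.038 with cyclic loess, and Rgs1 had −0.073 and −0.060. Without control arrays 1 and 2, Rap1gap had 0.074, Rasgrf2 0.16, Rgs22 0.015, Rgs7bp 0.023 and Rgs9bp 0.087. With each array left out, Rgs1 ran from −0.020 to 0.096, Rgs19 from −0.36 to 0.16 and Rasgrp3 from −0.22 to 0.016. Tnfsf11 had −0.033 with quantile normalization, −0.058 with cyclic loess, and −0.078 to 0.18 with each array left out. The cause of these turns was not tested. With the replicate block, 5 members were higher and 1 lower at an unadjusted p under 0.05, no member passed the adjusted threshold, and 0 genes in all did, against 1 without it. Whether same-numbered samples are paired is not known. No background level was measured, so differences of members below the median gene are poorly bounded.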
